A study of Mus musculus with 2 samples.

Results

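The globin switching genes of the mouse are the alpha-like genes Hba-x, Hba-a1 and Hba-a2 on chromosome 11 and the beta-like genes Hbb-y, Hbb-bh1, Hbb-bs and Hbb-bt on chromosome 7. They were taken by name, with each Ensembl identifier of the deposited tables matched without its version to the GENCODE annotation of the mm10 (GRCm38) assembly. All 7 genes were measured, out of 43346 gene entries, and they carry 12 of the 103639 transcript entries. Levels come from total RNA of intestine taken at embryonic day 15.5 (E15.5) from embryos of strain B6NCrl, a C57BL/6 substrain. The tissue of 62 embryos was pooled for replicate 2 and that of 78 embryos for replicate 1, males and females together. These 2 libraries form 1 group, so the comparisons are between loci, between genes and between the libraries, and no test of a condition was possible.

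Haemoglobin pairs alpha-like with beta-like chains, and mammals change both during development. In the mouse the first red cells, the primitive cells made in the yolk sac, carry embryonic chains from Hba-x, Hbb-bh1 and Hbb-y. The definitive red cells that the fetal liver makes later use the adult-type genes Hba-a1, Hba-a2, Hbb-bs and Hbb-bt. Primitive cells mature in the circulation, and as they do so Hbb-bh1 gives way to Hbb-y and adult-type chains are added. Globin message found in an organ such as the intestine is known to come largely from the blood in its vessels.

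Replicate 2 held 40669822 estimated counts and replicate 1 held 34406872, of which 39953610 and 33665128 lay on mouse genes. Levels are in TPM, a unit of transcript abundance in which a count is divided by the effective length of the transcript and each library is scaled to the same total. Intestinal identity was carried by markers of gut epithelium (6 of 6 reached a TPM of 1 in each library, here called detected, summing to 2982.32 TPM in replicate 2 and 3140.33 TPM in replicate 1) and of smooth muscle (5 of 5, 2867.54 and 2851.59 TPM). No marker of those lists was at 0. The red cell content of a bulk library enters every globin value, and fewer cells of a type cannot be told apart from less RNA per cell.

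The adult genes of each locus are nearly the same sequence, which bears on how far they can be read one by one. Their coding sequences differ at a single base within each pair, out of 429 coding bases in the alpha pair and 444 in the beta pair. Counting from 1 at the A of the start codon, the difference is T381C in codon 127, with Hba-a2 first and Hba-a1 second. In the beta pair it is C417T in codon 139, with Hbb-bs first and Hbb-bt second. Neither changes the encoded residue, so the proteins of a pair are identical over 142 and 147 residues. The 31 bases around each difference are shown because, within the coding sequence, they hold the only letters that separate the members of a pair. The differing base is in capitals, and coordinates are on GRCm38.
Hba-a2, chr11:32297145-32297175, plus strand: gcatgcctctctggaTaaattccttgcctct
Hba-a1, chr11:32284328-32284358, plus strand: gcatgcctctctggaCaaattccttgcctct
Hbb-bs, chr7:103826677-103826707, minus strand: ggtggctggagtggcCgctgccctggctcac
Hbb-bt, chr7:103812668-103812698, minus strand: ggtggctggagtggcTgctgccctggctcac

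The embryonic genes stand apart in sequence. Translated from the annotated coding sequences, the zeta-like chain of Hba-x shares 53.52% of its residues with the adult alpha chain. The chain of Hbb-y shares 75.51% with that of Hbb-bh1 and 70.75% with the adult beta chain, and Hbb-bh1 shares 67.35% with the adult beta chain. Of the 100-base words of Hba-x, Hbb-y and Hbb-bh1 transcripts, 0% occurred in another globin gene of the set. The effective lengths in the tables, each transcript's length minus 99, imply fragments of 100 bases. At that size 74.5% of the words of Hba-a2-201 occurred in Hba-a1 and 56.5% of those of Hba-a1-201 occurred in Hba-a2. Likewise 62.6% of the words of Hbb-bs-201 occurred in Hbb-bt and 54.8% of those of Hbb-bt-201 occurred in Hbb-bs. These words are those of a later annotation release, in which Hbb-bs-201 is 628 bases long against 778 bases as deposited. The share of Hbb-bs-201 as quantified may therefore differ. The embryonic genes can be read as single genes, while most words of these adult transcripts occur in the other gene of the pair.

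The deposited estimates carry this difference. Counts of the 3 embryonic genes were whole numbers with a posterior standard deviation of 0 in both libraries. Hba-a2 and Hba-a1 had the same posterior standard deviation of the count, 255.09 in replicate 2 and 249.73 in replicate 1, and Hbb-bs and Hbb-bt shared 280.19 in replicate 2 and 310.78 in replicate 1. A fragment moved from one member of a pair to the other changes both counts by the same amount. These deviations were 0.215% of the count of Hba-a2 in replicate 2 and at most 0.6471% of a count, that of Hba-a1 in replicate 1, so the modelled uncertainty was small beside the distance between Hba-a2 and Hba-a1.

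At the alpha locus the embryonic gene was far below the adult genes. Hba-x, the zeta-like gene (ENSMUSG00000055609.4, chr11:32276400-32278116, plus strand), was at 40.63 TPM in replicate 2 and 30.27 TPM in replicate 1, or 35.45 ± 7.33 TPM (SD, n = 2), on 753 and 474 counts. Its credibility bounds, which the authors deposited without a stated level, ran over 36.6 to 43.03 TPM in replicate 2 and 26.9 to 32.9 TPM in replicate 1 and did not overlap. It ranked 4460th among all genes by mean TPM.

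Hba-a2 (ENSMUSG00000069917.7, chr11:32296489-32297298, plus strand) was the highest globin gene in both libraries. It stood at 9344.4 TPM in replicate 2 and 9404.22 TPM in replicate 1, a mean of 9374 ± 42.3 TPM (SD, n = 2) which ranked 3 among all genes. Hba-a1 (ENSMUSG00000069919.7, chr11:32283511-32284465, plus strand) stood at 3365.35 TPM in replicate 2 and 3601.63 TPM in replicate 1. Both genes encode the same adult alpha chain, and Hba-a2 supplied 73.522% of their summed TPM in replicate 2 and 72.308% in replicate 1. By TPM the ratio of Hba-a2 to Hba-a1 was 2.7767 in replicate 2 and 2.6111 in replicate 1.

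At the beta locus the embryonic genes were unequal. Hbb-y, the epsilon-y gene (ENSMUSG00000052187.3, chr7:103851749-103853216, minus strand), was at 212.06 TPM in replicate 2 and 130.33 TPM in replicate 1, or 171 ± 57.8 TPM (SD, n = 2), on 3326 and 1755 counts. Its bounds were 201 to 215 TPM in replicate 2 and 121 to 133 TPM in replicate 1, also without overlap. Hbb-bh1, the beta-h1 gene (ENSMUSG00000052217.5, chr7:103841637-103843164, minus strand), was at 1.81 TPM in replicate 2 and 1.62 TPM in replicate 1. These values rest on 26 and 20 counts, with exact Poisson 95% intervals of 17.0 to 38.1 and 12.2 to 30.9 counts that cover counting error only. Its bounds, 1.17 to 2.54 TPM in replicate 2 and 0.967 to 2.37 TPM in replicate 1, overlap almost fully. Hbb-y therefore made up 99.154% of embryonic beta-like TPM in replicate 2 and 98.772% in replicate 1. At this depth no difference of Hbb-bh1 between the libraries was seen beyond counting error. The ratio of its share of all gene counts, replicate 2 over replicate 1, was 1.095 with a 95% counting interval of 0.6115 to 1.962. That interval also holds the same ratio for Hbb-y, 1.597.

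The adult beta genes were closer to each other than the adult alpha genes. Hbb-bs (ENSMUSG00000052305.5, chr7:103826534-103828096, minus strand) stood at 4775.89 TPM in replicate 2 and 4663.15 TPM in replicate 1. Hbb-bt (ENSMUSG00000073940.3, chr7:103812524-103813996, minus strand) stood at 3461.82 TPM in replicate 2 and 3464.13 TPM in replicate 1. In C57BL/6 mice this pair encodes a single adult beta chain. Hbb-bs supplied 57.976% of the summed TPM of the pair in replicate 2 and 57.377% in replicate 1.

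**Figure D1:**
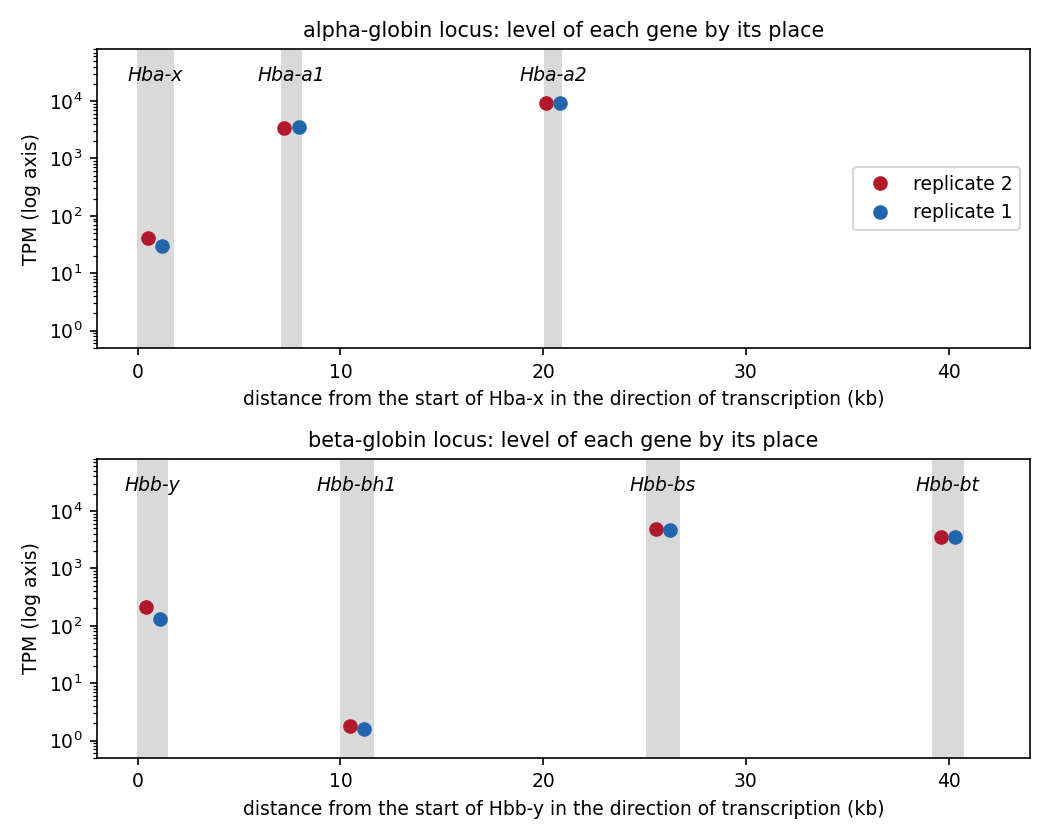
Level of each globin gene in TPM (log axis) against its place in the locus, as the distance in kb from the start of the first embryonic gene in the direction of transcription. Grey bands are gene bodies and points are the libraries, replicate 2 in red and replicate 1 in blue. The gene that opens each locus, Hba-x or Hbb-y, lies far below the adult genes, and Hbb-bh1, at 10.05 kb in the beta locus, is the lowest of the 7.

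Ranked by mean TPM the order was Hba-a2, Hbb-bs, Hba-a1, Hbb-bt, Hbb-y, Hba-x and Hbb-bh1. Each step was larger than the spread between the libraries except the one between Hba-a1 and Hbb-bt, whose means differed 1.006-fold and whose values overlapped. The places of Hbb-bs and Hba-a1 rest on transcripts with a retained intron. Counting coding transcripts alone, Hbb-bs (35.505% of adult beta TPM in replicate 2 and 36.978% in replicate 1) fell below Hbb-bt, and Hba-a1, at 1117.41 TPM in replicate 2 and 917.22 TPM in replicate 1, was also below Hbb-bt. Hbb-bt was 20.23-fold above Hbb-y, Hbb-y 4.829-fold above Hba-x, and Hba-x 20.67-fold above Hbb-bh1. Among the members at the alpha locus the levels went up in their order along the DNA, with Hba-a1 7.111 kb and Hba-a2 20.09 kb from the start of Hba-x. This holds only without the theta-like genes of the locus. Hbq1b, at a mean of 2.65 TPM, lies between Hba-a1 and Hba-a2, and Hbq1a, at 0.45 TPM, lies beyond Hba-a2. Among the members at the beta locus the levels did not follow the order of the genes. Hbb-bh1, at 10.05 kb from the start of Hbb-y, was below both Hbb-y and the adult genes at 25.12 and 39.22 kb.

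**Figure D2:**
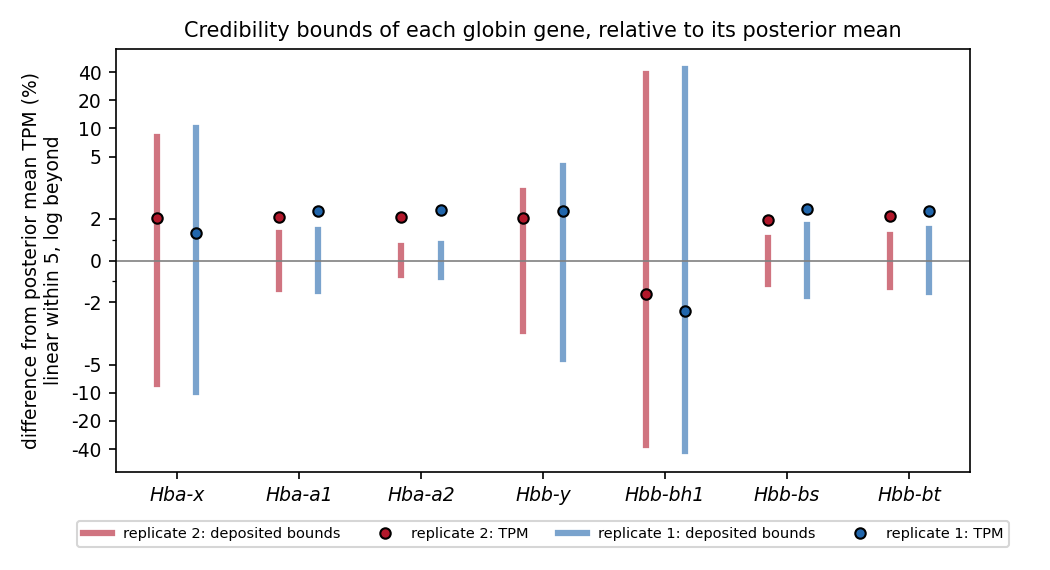
Deposited credibility bounds (bars) and deposited TPM (points) of each globin gene, as percent difference from its posterior mean TPM, with an axis that is linear within 5 and logarithmic beyond. Bounds are narrow for the adult genes and widest for Hbb-bh1, and the TPM of all 4 adult genes lies above the upper bound in both libraries.

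The bounds were widest for the gene with the fewest counts and narrowest for the gene with the most. Their width was 74.41% of the posterior mean for Hbb-bh1 in replicate 2 and 84.32% in replicate 1, against 1.415% and 1.55% for Hba-a2. The TPM column and the posterior mean column, which come from different estimates, were not interchangeable at this precision. The TPM of the adult genes exceeded their posterior mean by 1.95 to 2.162% in replicate 2 and 2.378 to 2.475% in replicate 1, which put every adult TPM above its own upper bound. Hbb-y had the same offset, 2.065% in replicate 2 and 2.372% in replicate 1, but inside its wider bounds. Ratios of these genes within a library carry almost none of this offset.

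The embryonic share was much smaller at the alpha locus than at the beta locus, in both libraries. Hba-x made up 0.31866% of alpha-like TPM in replicate 2 and 0.2322% in replicate 1, or 0.275 ± 0.0611% (SD, n = 2). Hbb-y with Hbb-bh1 made up 2.5305% of beta-like TPM in replicate 2 and 1.5976% in replicate 1, or 2.06 ± 0.660%. The ranges of the 2 loci did not overlap. By counts, with Wilson 95% intervals for counting error only, the alpha-locus share was 0.46226% (0.430 to 0.496%) in replicate 2 and 0.33476% (0.306 to 0.366%) in replicate 1. The beta-locus share by counts was 2.5068% (2.4244 to 2.592%) in replicate 2 and 1.581% (1.5096 to 1.6556%) in replicate 1. TPM divides by the effective length, which was 664.03 bases for Hba-x in replicate 2 and 455 bases for Hba-a2, and at the alpha locus the share by counts was the higher one.

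**Figure D3:**
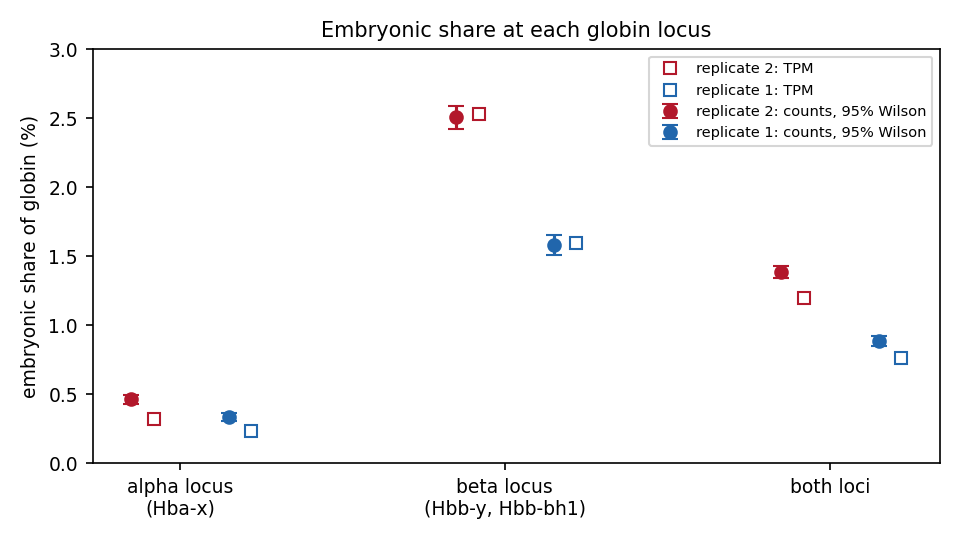
Embryonic share of globin in percent at the alpha locus, at the beta locus and over both. Filled points are shares of counts with Wilson 95% intervals, open squares are shares of TPM, and replicate 2 (red) stands left of replicate 1 (blue). At the beta locus replicate 2 is at 2.5068% and replicate 1 at 1.581% by counts, and both lie above either library at the alpha locus.

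The share was higher in replicate 2 at both loci. It was 1.372-fold that of replicate 1 at the alpha locus and 1.584-fold at the beta locus by TPM. The intervals of the libraries did not overlap at either locus, so the libraries differed by more than counting error there. Among embryonic globins Hba-x had 18.343% of counts in replicate 2 (Wilson 17.189 to 19.557%) and 21.076% in replicate 1 (19.44 to 22.81%), intervals that meet only between 19.44 and 19.557%.

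Alpha-like and beta-like messages stood in different proportions in the embryonic and the adult class. Embryonic alpha-like TPM was 0.18998 of embryonic beta-like TPM in replicate 2 and 0.22941 in replicate 1. Adult alpha was 1.5429 times adult beta in replicate 2 and 1.6003 times in replicate 1. Over all 7 genes the alpha to beta ratio was 1.54 ± 0.0493 (SD, n = 2) by TPM, while counts, which do not correct for length, gave 1.2182 in replicate 2 and 1.2612 in replicate 1. Alpha exceeded beta in the adult class and fell short of it in the embryonic class under either unit.

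Between the libraries Hbb-y and Hba-x differed most, and the adult genes lay near equality. The log2 ratio of replicate 2 over replicate 1, with 1 added to each TPM, was 0.70 for Hbb-y, 0.41 for Hba-x and 0.10 for Hbb-bh1. It was -0.0092 for Hba-a2, -0.098 for Hba-a1, 0.034 for Hbb-bs and -0.00096 for Hbb-bt. With coding transcripts alone it was 0.284 for Hba-a1 and -0.0928 for Hbb-bs, so the sign of neither is settled. Of the 7 genes Hbb-y alone passed 1.5-fold on this scale, and its plain TPM ratio was 1.627. Of the 14986 detected genes, 2.23% passed that limit in either direction and 0.754% were past it with replicate 2 higher. A larger log2 ratio than that of Hbb-y was found in 0.487% of those genes, and than that of Hba-x in 1.94%. The middle 50% of detected genes lay between -0.0887 and 0.125 around a median of 0.0206.

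Summed over the embryonic genes the libraries had 254.5 TPM in replicate 2 and 162.22 TPM in replicate 1, a ratio of 1.569. Summed over the adult genes they had 20947.5 TPM in replicate 2 and 21133.1 TPM in replicate 1, a ratio of 0.9912. The total over all 7 was 21202.0 TPM in replicate 2 and 21295.4 TPM in replicate 1. The summed adult-type globin message was thus nearly equal in the pools while the summed embryonic globin message was not. As a share of all gene counts, with a 95% counting interval, replicate 2 over replicate 1 was 1.597 (1.507 to 1.692) for Hbb-y and 1.339 (1.193 to 1.502) for Hba-x.

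Other genes of red cells had log2 ratios below those of Hbb-y and Hba-x. The comparison used 4 lists with 65 genes, of which 59 were detected. On the log2 scale with 1 added to each TPM, 0 of the 59 passed 1.5-fold in either direction, against 2.23% of all detected genes. Without the added 1, 2 membrane genes were past it, Kel (2.74 TPM in replicate 2 and 4.32 TPM in replicate 1, a ratio of 0.6343) and Sptb (1.06 and 1.65 TPM, a ratio of 0.6424). Both were named after their values were seen. With 0.1 added in place of 1, 3.71% of all 14986 detected genes were past the limit. On the log2 scale the median of the 59 was -0.0711 (range -0.508 to 0.233), and 17 were above 0, against 55.2% of all detected genes. Alas2, the erythroid enzyme that starts heme synthesis, was at 55.43 TPM in replicate 2 and 55.98 TPM in replicate 1, the log2 ratio nearest to that of the summed adult globins in these lists. It was followed by the catalase gene Cat (107 and 108.7 TPM) and the heme synthesis gene Uros (28.2 and 28.77 TPM). Nearest to the embryonic sum, although well below its log2 ratio of 0.65, were the transferrin receptor gene Tfrc at 0.233 (86.04 TPM in replicate 2 and 73.06 TPM in replicate 1), Bcl11a, a repressor of embryonic globin genes in mice and of gamma globin in humans, at 0.183 (16.48 and 14.4 TPM) and the mitophagy gene Bnip3l at 0.178 (336.86 and 297.74 TPM). With 2 libraries this likeness rests on 1 ratio per gene, and which cells of the intestine held these messages was not tested.

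Among globin regulators 18 of 20 were detected, with a median log2 ratio of -0.0673, a range of -0.362 to 0.183 and 7 above 0. The highest were Chd4, a chromatin remodeller, at 51.58 TPM in replicate 2 and 50.9 TPM in replicate 1, the CACCC-binding factor gene Klf3 at 49.08 and 47.08 TPM, the LIM-domain cofactor gene Ldb1 at 45.61 and 49.07 TPM, and the human gamma-globin repressor gene Zbtb7a at 44.1 and 43.44 TPM. All 4 are active in many cell types. Of the erythroid regulators named here, Gata1 was at 1.41 TPM in replicate 2 and 2 TPM in replicate 1, Klf1, an activator of adult beta globin, at 5.37 and 6.34 TPM, and Tal1 at 0.65 and 0.82 TPM.

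All 12 heme synthesis genes were detected, with a median log2 ratio of -0.0683 and 609.22 TPM in sum in replicate 2 against 635.08 TPM in replicate 1. Among the highest were Alad (130.91 and 133.5 TPM), Alas1, the housekeeping form of the first enzyme (58.21 and 61.3 TPM), and Urod (57.44 and 62.48 TPM). Red cell membrane genes were lower, with 15 of 17 detected and a median log2 ratio of -0.0665. They were led by the skeleton gene Epb41 at 43.3 TPM in replicate 2 and 40.32 TPM in replicate 1, the glycophorin gene Gypc (30.63 and 29.43 TPM), the water channel gene Aqp1 (13.78 and 16.59 TPM) and the band 3 anion exchanger gene Slc4a1 (12.76 and 14.95 TPM). Of the enzymes and maturation genes 14 of 16 were detected, with the lowest median log2 ratio of the 4 lists, -0.187. Prdx2, a peroxidase abundant in red cells, led at 483.68 TPM in replicate 2 and 508.18 TPM in replicate 1, ahead of Bnip3l, Cat and Tfrc. The carbonic anhydrase gene Car1 (0.39 and 0.54 TPM) and the erythroid ubiquitin ligase gene Trim58 (0.19 and 0.14 TPM) were below 1.

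**Figure D4:**
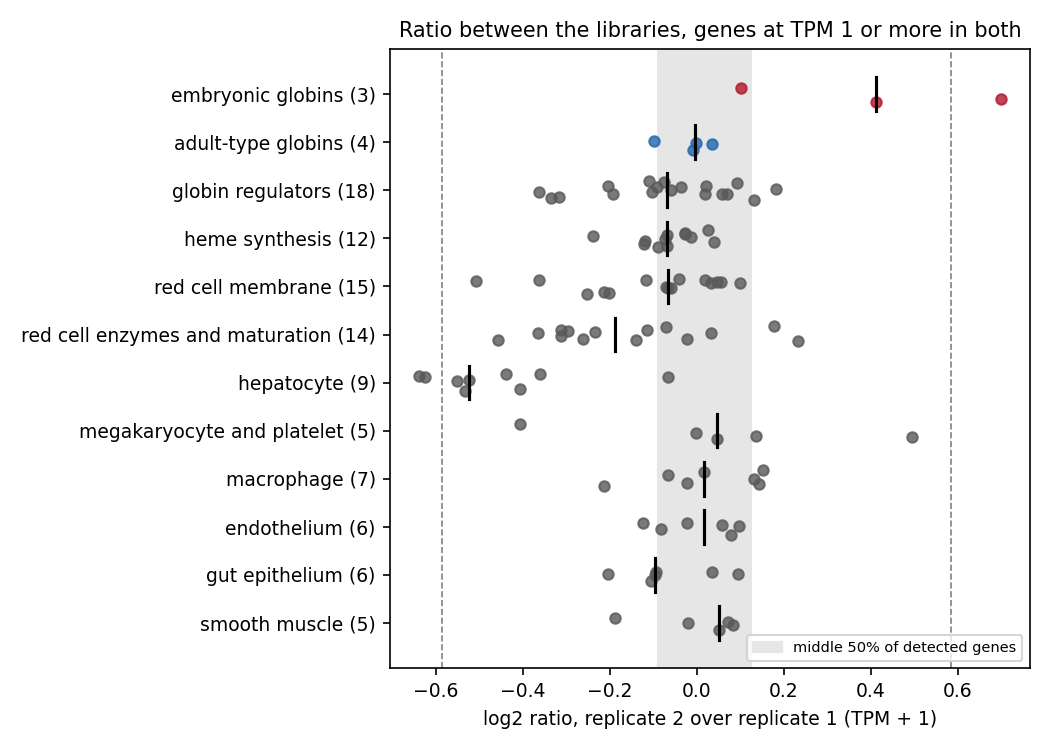
Log2 ratio of replicate 2 over replicate 1 for the globin genes, red cell lists and cell type markers that were detected, 1 point per gene, with list medians as black bars. The grey band is the middle 50% of detected genes and dashed lines mark 1.5-fold. Hbb-y is past the line at 0.70, the adult globins lie near 0 and the hepatocyte markers lie lower, at a median of -0.522.

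Of the markers of other cell types, those of hepatocytes differed between the libraries as a list. Fetal liver is the site of definitive red cell formation at this age. The hepatocyte markers were lower in replicate 2, and whether their RNA came from liver or from the intestine itself was not tested. All 9 were detected, 0 of 9 had a log2 ratio above 0, their median was -0.522, and they summed to 560.43 TPM in replicate 2 and 786.43 TPM in replicate 1. The albumin gene Alb (42.52 and 66.68 TPM) and the fibrinogen gene Fgg (5.39 and 8.85 TPM) were past 1.5-fold. Megakaryocyte and platelet genes (5 of 6 detected) summed to 52.01 TPM in replicate 2 and 50.82 TPM in replicate 1, macrophage genes (7 of 7) to 179.97 and 183.13 TPM, and endothelial genes (6 of 6) to 228.35 and 232.29 TPM. No marker of these lists was at 0 in both libraries. The part of liver tissue in the difference of the embryonic globins was not tested.

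Transcript estimates split the adult genes in ways that the gene level hides. Hba-x has a longer coding transcript, Hba-x-201, with 82.9% of the TPM of the gene in replicate 2 and 78.14% in replicate 1, and a shorter one, Hba-x-202, with the rest. Hbb-y, Hbb-bh1 and Hbb-bt have 1 transcript each. At Hba-a2 the coding transcript Hba-a2-201 took 9344.16 TPM in replicate 2 and 9403.93 TPM in replicate 1, and the retained-intron transcript Hba-a2-202 took 0.24 and 0.29 TPM. At Hba-a1 the split was the other way round. The retained-intron transcript Hba-a1-202 took 66.8% of the TPM of the gene in replicate 2 and 74.53% in replicate 1, or 2247.94 and 2684.41 TPM. The coding transcript Hba-a1-201 had 1117.41 TPM in replicate 2 and 917.22 TPM in replicate 1.

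Hba-a1-202 and Hba-a2-202 are the same but for 1 base. Each is 494 bases long, of which 113 lie outside the exons of the coding transcript, and they differ by T399C, counted from the first base of the transcript, with Hba-a2 first. That base, at positions 32297160 and 32284343 of chromosome 11, is the silent coding difference shown above. Of the 395 words of 100 bases in each retained-intron transcript, 299 occur in the other gene, and 0 are found in no other transcript at all. A fragment of this size that reaches the intron is thus the same in both genes, and one that covers the differing base is also found in the coding transcript of its own gene. Of the 395 words of Hba-a1-202, 284 also occur in Hba-a1-201, and how many fragments reached the intron was not examined. Which gene any intron-containing message came from cannot be read from these values.

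Hbb-bs also had a retained-intron transcript. Hbb-bs-202 took 60.1% of the TPM of the gene in replicate 2 and 56.41% in replicate 1, and the coding transcript Hbb-bs-201 took 39.61% and 41.01%. Of the 245 words of 100 bases in Hbb-bs-202 as later annotated, 192 also occur in Hbb-bs-201 and 192 in Hbb-bt-201. Only 53 occur in no other transcript, and how many fragments reached the intron was not examined. The remaining transcript, Hbb-bs-203, was at 14.25 TPM in replicate 2 and 120.26 TPM in replicate 1, with bounds of 5.99 to 36.7 TPM and 55.4 to 169.9 TPM that did not overlap. This was the least even of the transcripts above 1 TPM, in a gene whose total TPM in replicate 2 was 1.024-fold that in replicate 1. Transcript types are those of a later annotation release, in which Hbb-bs-202 is 344 bases long against 549 bases in the deposited tables and Hbb-bs-201 is 628 bases against 778, so the types of Hbb-bs transcripts are less certain than those of the alpha genes.

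**Figure D5:**
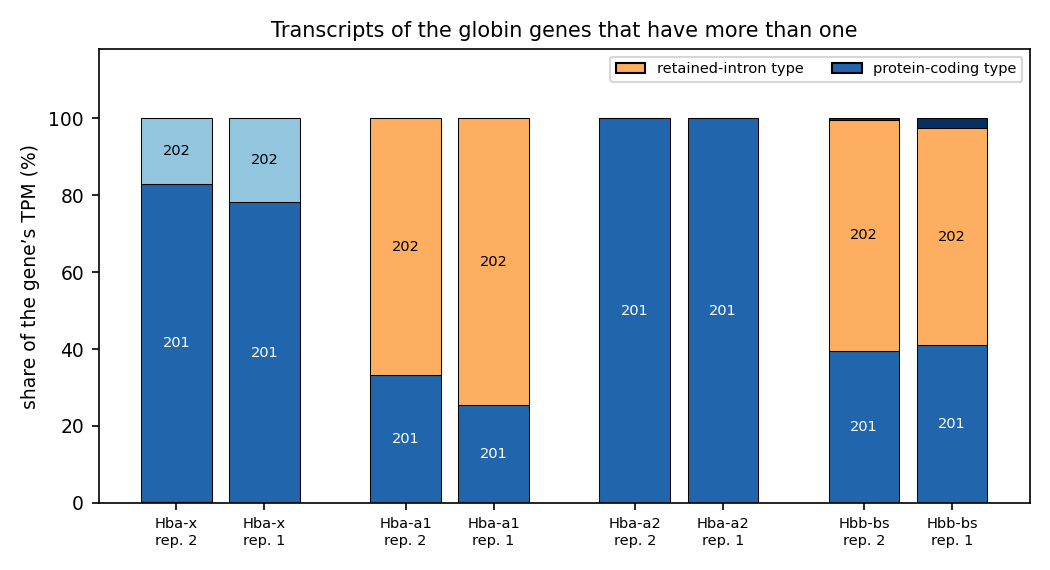
Share of the TPM of a gene (percent, stacked) on each of its transcripts, for the 4 globin genes with several, replicate 2 left of replicate 1. Orange is the retained-intron type, blues are coding transcripts, and numbers are transcript suffixes. Hba-a1 and Hbb-bs have most of their TPM on a retained-intron transcript, and Hba-a2 has nearly all of it on its coding transcript.

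With coding transcripts alone, an alternative chosen after the data were seen, the adult pairs looked different. Averaged over the libraries, Hba-a2 then supplied 90.216% of adult alpha TPM and Hbb-bs 36.242% of adult beta TPM, below Hbb-bt. The order of Hbb-bs and Hbb-bt is thus not settled by these tables, whereas Hba-a2 led Hba-a1 either way.

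Other globins were low or absent from the tables. Hbq1b, a theta-like gene of the alpha locus, was at 2.79 TPM in replicate 2 and 2.51 TPM in replicate 1, and Hbq1a at 0.34 and 0.56 TPM. The estimates of Hbq1b were above those of Hbb-bh1, but the bounds overlapped in both libraries. Those of Hbq1b were 1.92 to 3.76 TPM in replicate 2 and 1.69 to 3.53 TPM in replicate 1. The beta-like gene Hbb-bh2 and the pseudogene Hbb-bh3 were listed at 0 in both libraries, Hbb-bh0, a pseudogene, had 1 count in replicate 2 and none in replicate 1, and the pseudogene Hba-ps4 was at 0.21 and 0 TPM. Of the globins that do not serve blood transport, Cygb (cytoglobin) was at 10.81 TPM in replicate 2 and 10.4 TPM in replicate 1, Ngb (neuroglobin) at 0.9 and 1.02 TPM and Mb (myoglobin) at 0.34 and 0.26 TPM. Hbb-b1, Hbb-b2 and Hba-ps3 were not analysed here.

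The neighbourhoods of the loci differed. Within 100 kb of the alpha locus 5 of 6 protein-coding genes were detected, namely Rhbdf1 (44.69 TPM in replicate 2 and 43.73 TPM in replicate 1), Snrnp25 (37.79 and 40.75 TPM), Mpg (25.74 and 30.39 TPM), Nprl3 (24.18 and 27.49 TPM) and Sh3pxd2b, with Il9r below 1. Nprl3, whose introns are known to hold the major enhancers of alpha globin, ends 8.69 kb from Hba-x and stood far below the adult alpha genes. Around the beta locus all 12 protein-coding neighbours are olfactory receptor genes, and all 12 were listed at 0 in both libraries. The high levels of the globin genes thus did not extend to the genes next to them.

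Promoter letters are given for the highest adult-type gene and the highest embryonic gene, since globin promoters are known to be bound by Klf1, which reads a CACCC box, by Gata1, which reads GATA, and by factors of the CCAAT box. The windows are the 120 bases upstream of the RefSeq start on GRCm38.p6, and capitals mark these boxes and the TATA box, which was searched as TATAAA and in the shorter form TATAA that it contains. Both strands were searched.
Hba-a2, chr11:32296372-32296491, plus strand: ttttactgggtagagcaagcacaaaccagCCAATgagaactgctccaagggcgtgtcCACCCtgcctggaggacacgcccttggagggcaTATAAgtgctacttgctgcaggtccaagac
Hbb-y, chr7:103853208-103853327, minus strand: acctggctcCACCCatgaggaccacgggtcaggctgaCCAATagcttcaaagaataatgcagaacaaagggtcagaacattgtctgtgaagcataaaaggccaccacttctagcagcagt

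RefSeq had a promoter for 6 of the 7 genes, Hbb-bh1 being the exception. RefSeq and GENCODE place the gene starts differently, so the windows also hold bases that GENCODE M21 annotates as exon of the same gene: all 120 for Hba-x and Hba-a1, 73 for Hbb-bt, 37 for Hbb-bs, 9 for Hbb-y and 3 for Hba-a2. CACCC was in 6 of 6 windows and in 31.7% of 32851 promoter windows of the same length. CCAAT was in 5 of 6 (21.3% of all windows), being absent from the Hba-x window. GATA was in 2 of 6, those of Hba-x and Hbb-bs (29.5%). TATAAA was in 2 of 6, those of Hba-x and Hbb-bt (6.34%), and TATAA, a shorter form added after the sequences were seen, in 5 of 6, all but Hbb-y (11.8%). The windows of Hba-a1 and Hba-a2 were the same over all 120 bases when shifted by 3, while the ratio of Hba-a2 to Hba-a1 averaged 2.6939 by TPM. With coding transcripts alone Hba-a2 held 89.319% of adult alpha TPM in replicate 2 and 91.113% in replicate 1, so that ratio is larger there. Those of Hbb-bs and Hbb-bt agreed at 74.2% of positions, and other pairs at 30.0 to 38.3%. Motif matches describe letters only and no binding was measured.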

How the data were processed

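Each library has a gene table and a transcript table with the columns that RSEM writes. What quantifier and aligner were run, how long reads were and whether strand was used is not stated. GENCODE M4 on mm10 was used, per the deposited readme. Per the labels' protocols, 10 ng of RNA with ERCC spike-ins entered each library. Per the file headers, the authors give expected counts (estimated, since shared fragments are split), TPM scaled over all entries, FPKM (not used here), a percent of each gene's TPM per transcript, and credibility bounds and posterior deviations, treated as a score with no stated level. Spike-ins took 3.818% of TPM in replicate 2 and 4.551% in replicate 1.

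Symbols, positions and transcript types came from GENCODE M21 on the same assembly, which named 42462 gene entries (98.0%). A gene that reached a TPM of 1 in each library was called detected. Library ratios were log2((TPM of replicate 2 + 1)/(TPM of replicate 1 + 1)), which understates low genes, and a limit of 1.5-fold was used. The ratio function was run on simulated counts that held counting error only, with a scaling other than that of the reported TPM ratios. That run does not show how the reported ratios behave between amplified libraries. Shares of counts have Wilson 95% intervals. These treat amplified reads as independent and cover counting error only. Scaling factors came from edgeR 4.0.16 in R 4.3.3, with no test. Words of 100 bases were matched over all M21 transcripts on both strands, and promoters came from RefSeq tables. Python 3.11.15, numpy 2.4.6, pandas 2.3.3 and scipy 1.17.1 were used.

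The members and the gene lists were chosen with earlier results of these data known. Named are all members and other globins and, per list, the 4 highest genes, up to 3 below a TPM of 1 and up to 2 past 1.5-fold. The genes nearest in ratio to the globin sums and protein-coding neighbours within 100 kb are named as well. Some genes that this rule names are left out here. Alas2, Gata1 and Klf1 were otherwise named for their known roles after their values were seen. Alternatives changed the unit, scaling, pseudocount, detection limit and library.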

Additional observations from a re-analysis of the deposited data

How the results depend on the processing

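No paired analysis was possible because the libraries form 1 group. Leaving out 1 library gave embryonic shares of 0.762 to 1.20% over both loci, 0.232 to 0.319% at the alpha locus and 1.60 to 2.53% at the beta locus, an alpha to beta ratio of 1.51 to 1.58, and Hba-a2 and Hbb-bs shares of 72.3 to 73.5% and 57.4 to 58.0%. Detected list members were then 18 to 19 regulators, 12 heme synthesis, 15 to 16 membrane and 14 enzyme genes. Hbb-y (log2 ratio 0.665 to 0.702) and the embryonic sum (0.614 to 0.649) stayed past 1.5-fold in 7 of 7 alternatives, and Hba-x (0.396 to 0.431) in 0 of 7. The alternative of coding transcripts only could not change these ratios, because every transcript of the embryonic genes is annotated as coding. With expected counts the alpha-locus share was 0.399%, the alpha to beta ratio 1.24 and the Hbb-bs share 54.9%. With coding transcripts only, added after the data were seen, the embryonic shares were 1.30%, 0.340% and 3.09%, the alpha to beta ratio 1.86, and the Hba-a2 and Hbb-bs shares 90.2% and 36.2%. The log2 ratio of the adult sum, -0.013 as reported, was -0.030 in CPM of gene counts, -0.024 with TPM over genes alone and 0.0010 with coding transcripts only, and under the last that of Hba-a1 became 0.284 and that of Hbb-bs -0.0928. Across the 7 alternatives the log2 ratio of Hba-a1 lay between -0.109 and 0.284, of Hba-a2 between -0.0363 and -0.00434, of Hbb-bs between -0.0928 and 0.0419 and of Hbb-bt between -0.0281 and 0.00217, and 10 of these recomputed values moved by more than the counting error. Genes past 1.5-fold numbered 334, against 912 with no filter, 90 at a TPM of at least 10 and 556 with a pseudocount of 0.1. At a TPM of at least 5, 7 membrane genes remained detected. In the other 53 recomputed values of main results and 39 of single genes, the change was under the spread between libraries for a share, under the counting error for a log2 ratio and at most 1.5 times for a count. Some of these values could not have moved. Leaving out 1 of 2 libraries always changes a share or the alpha to beta ratio by less than the spread used as the limit. Sums over transcripts repeat the gene values, and coding transcripts alone repeat those of the embryonic genes and Hbb-bt. These numbers of unchanged values therefore do not measure how stable the results are.

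Depth limits Hbb-bh1, with 26 and 20 counts. With 1 pool behind each library, the spread of single embryos was not measured, and the libraries differ in pool as well as in preparation. The split within adult pairs rests on how shared fragments were assigned.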
